A study of Mus musculus with 14 samples.

Results

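The genes described here are the 4 simple epithelial keratins Krt7, Krt8, Krt18 and Krt19, taken by symbol from the 24054 genes of each table, and all 4 had counts in every library. RNA of sorted mouse cells was sequenced in 14 libraries of 6 groups to follow what the transcription factor Foxa2 does as embryonic stem cells turn into endoderm. The groups d0con and d0ko (n = 2 each) were undifferentiated cells of the line IDG3.2, sorted as Cherry-negative so that red feeder cells were left out. The groups d3con and d3ko (n = 3 each) were Venus-positive cells taken on day 3 of culture with Activin A at 12 ng/ml on feeders that secrete Wnt3a. The con genotype was Foxa2-Venus-KO/+, with the reporter H2B-Venus in place of the coding region on 1 allele of Foxa2, and ko cells had it on both alleles, so that Venus marked cells with an active Foxa2 locus and the controls themselves carried a single working copy. Each genotype was represented by a pair of clones (C59 and C63 for con, C9 and C17 for ko), and replicates 1 and 3 at day 3 came from the same clone. The groups d2-FVFn and d2-FVFp (n = 2 each) were assigned to 1 line, T119. In it a lentiviral Tet-On transgene makes a Foxa2-Venus fusion in cells homozygous for a Sox17-Cherry reporter. These cells received 40 ng/ml doxycycline for 48 hours without feeders. They were sorted as Venus-negative (d2-FVFn) and Venus-positive (d2-FVFp), so that both groups had seen the drug.

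Keratins are the intermediate filament proteins of epithelial cells, and a filament is built from pairs of a type II and a type I chain, neither of which forms a filament alone. Krt8 (type II) and Krt18 (type I) are the pair that appears first in the embryo and the usual pair of single-layered epithelia such as liver and gut. Krt7 (type II) and Krt19 (type I) join or replace them in ducts, trophoblast and other simple epithelia, and all of them are in regular use as markers of epithelial and endodermal cells.

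Krt8 (chromosome 15, 101996711 to 102004342, minus strand, GRCm38.p6, the assembly that mm10 names) and Krt18 (chromosome 15, 102028216 to 102032026, plus strand) are protein-coding neighbours that point away from each other, with 23.9 kb between their start sites and 2 annotated genes in between. Krt7 (chromosome 15, 101412403 to 101427806, plus strand) lies 569 kb from Krt8, and 23 of the 31 genes between them are keratins. Krt19 (chromosome 11, 100140810 to 100145926) is in the other keratin cluster. The 250 bases before the start sites of the 3 members on chromosome 15 follow, from the RefSeq table of GRCm38.p6, because these 3 genes were called changed in each of the 3 comparisons of cells with and without Foxa2 RNA. Capitals mark matches on either strand to 3 motifs. The GC box was searched as GGGCGG. The GATA motif, bound by factors such as Gata4, was searched as AGATAA. The TATA box, which positions the start of transcription, was searched as TATAAA.
Krt8, chr15:102004343-102004592, minus strand: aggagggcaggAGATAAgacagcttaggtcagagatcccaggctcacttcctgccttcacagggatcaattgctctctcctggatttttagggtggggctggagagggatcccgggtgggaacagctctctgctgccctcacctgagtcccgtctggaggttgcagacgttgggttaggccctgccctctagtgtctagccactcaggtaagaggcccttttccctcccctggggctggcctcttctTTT
Krt7, chr15:101412153-101412402, plus strand: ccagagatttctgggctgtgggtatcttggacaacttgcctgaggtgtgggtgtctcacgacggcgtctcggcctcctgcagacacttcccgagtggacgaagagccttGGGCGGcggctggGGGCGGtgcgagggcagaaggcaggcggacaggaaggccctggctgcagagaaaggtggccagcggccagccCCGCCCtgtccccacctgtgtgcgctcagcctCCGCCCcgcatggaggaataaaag
Krt18, chr15:102027966-102028215, plus strand: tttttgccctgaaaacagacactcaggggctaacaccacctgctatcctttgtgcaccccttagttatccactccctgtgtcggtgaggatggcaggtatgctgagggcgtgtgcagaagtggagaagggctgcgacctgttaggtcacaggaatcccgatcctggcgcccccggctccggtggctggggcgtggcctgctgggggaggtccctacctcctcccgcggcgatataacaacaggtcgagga

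The Krt7 window held 4 GC boxes, 2 on each strand, a motif found in 35.7% of the 32851 promoters of the table. The Krt8 window held 1 GATA match, 239 bases before the start, which 11.2% of promoters have, and its last 3 capitals begin a pair of overlapping TATA box matches that run across the start site (13.6% of promoters). Krt18 had no match to any motif searched. None of the 3 windows, taken from 250 bases before to 50 bases after the start, held a forkhead motif, of the family to which Foxa2 belongs. It was searched as TGTTTAC, which 3.6% of all promoters in the table have. A second form searched was TATTTAC, with a share of 3.0% of promoters. The remaining form was TGTTTGC, with a share of 5.1%, and 11.2% of promoters hold at least 1 of them. The AP-1 motif, searched as TGANTCA, was in none of the windows either and is in 7.8% of promoters. The Ets motif, searched as CCGGAA, was also in none and is in 14.9% of promoters. These are letters in short windows and say nothing on binding. GC content was 66.0% for Krt7, 58.0% for Krt8 and 60.4% for Krt18, against a median of 52.4% over all promoters of the table.

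The libraries held 14142788 to 27278237 expected counts. Foxa2 read 34.8 to 58.6 TPM (the share of transcripts, scaled for gene length and library total) in d3con and 0.11 to 0.19 TPM in d3ko, and 160 to 169 TPM in d2-FVFp against 2.01 to 2.99 TPM in d2-FVFn, in the order that the labels give. Undifferentiated cells carried the pluripotency markers (Pou5f1, Nanog, Sox2, Zfp42, Klf4 and Dppa5a) at a summed 13787 to 15663 TPM. Most of this sum was Dppa5a, which averaged 12342 TPM in d0con, 13053 TPM in d0ko and 10536 TPM in d3ko. Pou5f1 averaged 1396 TPM in d0ko and 656 TPM in d3ko, and none of the 6 was called in d3ko against d0ko. The d3ko group was uneven, since its replicate 2 had a pluripotency sum of 2668 TPM against 15431 and 17364 TPM in replicates 1 and 3. The effective gene lengths in the tables correspond to 75-base reads in replicate 1 of both day 3 groups and to 50-base reads elsewhere, while the study's protocol gives 50 bases throughout, so the read length of those 2 libraries is uncertain. The labels do not say that replicates are separate cultures, so the p-values measure only the spread between these libraries. In bulk RNA, fewer keratin-expressing cells and less keratin RNA per cell cannot be told apart. Reads of keratins are partly shared with near-identical copies of these genes, and RSEM divides such reads by estimate, so the levels are uncertain to that extent. Replicate 1 of both day 3 groups had no fractional count among the members, and each other library had at least 1.

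**Figure D1:**
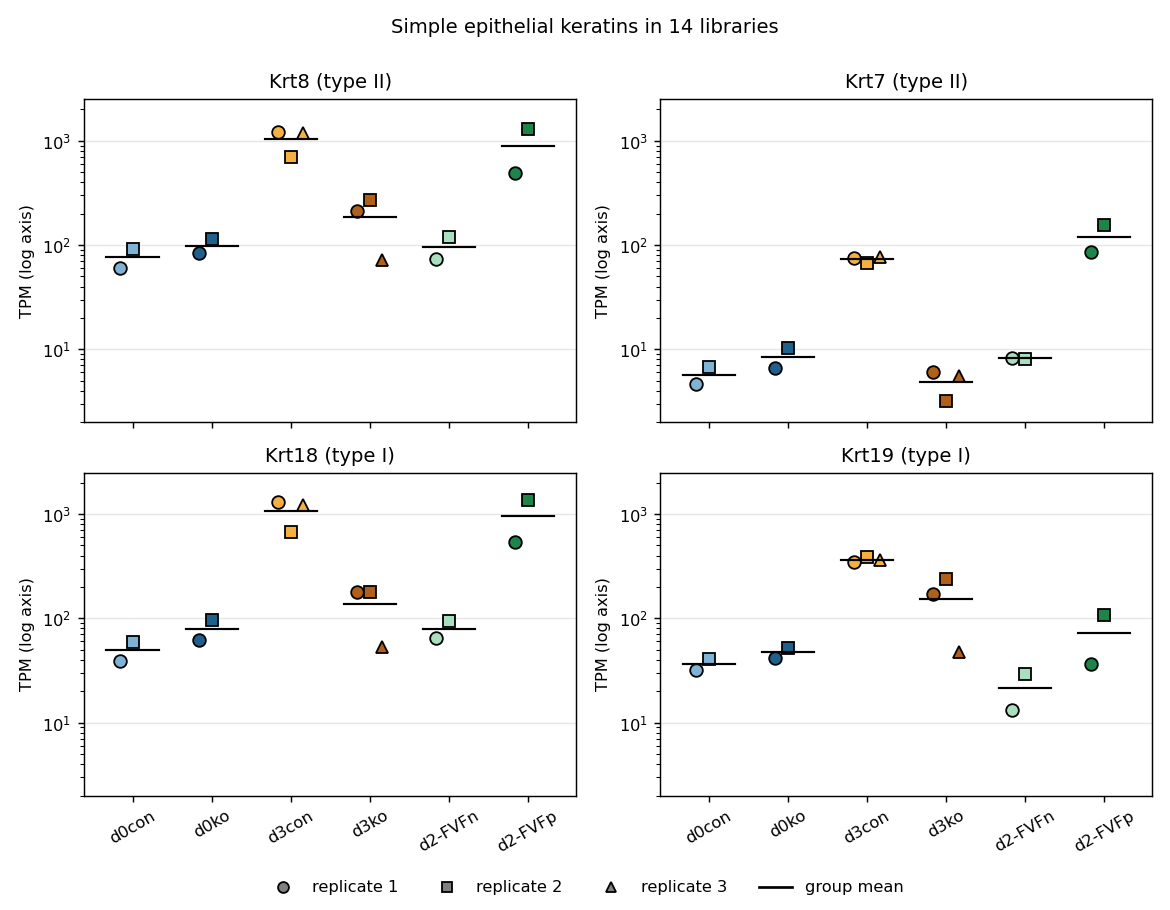
TPM (log axis) of each keratin in every library, by group, with markers for the replicate number and a bar for the group mean. All 4 genes were highest in d3con or d2-FVFp. Krt7 was the only member whose d3ko libraries (3.22 to 6.02 TPM) all lay below the d0ko libraries (6.62 and 10.3 TPM). That fall was not called, and the share of all genes that separate in this way was not counted.

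The first question was how the keratins change when Foxa2-expressing control cells form endoderm. All 4 rose: 4 of 4 were called higher in d3con than in d0con, where 20.6% of the 13899 genes tested were called higher. Genes are called here when the adjusted p falls below 0.05 and the change is more than 2-fold in either direction. Krt8, the first type II keratin of the embryo, read 60.7 and 91.8 TPM in the d0con libraries and 1207, 700 and 1188 TPM in d3con. No library of d0con reached the lowest of d3con. That is a log2 fold change of 3.56 ± 0.56 (SE), an 11.8-fold rise (edgeR quasi-likelihood test, adjusted p = 0.00115). Krt7, the type II keratin of ducts, was far less abundant, at 4.63 and 6.78 TPM in d0con and 74.4, 66.7 and 77.3 TPM in d3con. Its d3con libraries lay close together, with an SD of 5.47 TPM around a mean of 72.8 TPM (n = 3). On the log2 scale Krt7 rose by 3.47 ± 0.35 (edgeR adjusted p = 0.000234).

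Krt18, the type I partner of Krt8, had the largest rise of the members. It read 38.7 and 59.8 TPM in d0con and 1298, 671 and 1223 TPM in d3con, with replicate 2 lowest, as for Krt8. It rose 18.8-fold, or 4.23 ± 0.61 on the log2 scale (edgeR adjusted p = 0.000746). Krt19, a type I chain that is short because it lacks most of the tail domain, read 31.8 and 40.5 TPM in d0con and 347, 386 and 365 TPM in d3con. Here replicate 2 was the highest and the d3con libraries again did not overlap with d0con. Krt19 rose by 3.13 ± 0.56 on the log2 scale (edgeR adjusted p = 0.00205). By TPM, Krt8 moved from rank 2053 to 2785 of all genes in d0con to rank 112 to 208 in d3con, and Krt7 from rank 8099 to 9039 to rank 2302 to 2718.

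Fibroblast markers, which feeder cells express, were also higher at day 3. The 12 markers summed to 28.4 and 29.3 TPM in d0con and to 564, 92.5 and 299 TPM in d3con, 6 of the 11 tested were called higher, and Col1a1, a fibrillar collagen, read 6.54 TPM in d0con and 110 TPM in d3con on average. None of the 12 was at 0 in either group. The same sum was 206 to 498 TPM in d3ko, in libraries where the 4 keratins together reached 178 to 692 TPM, against 1824 to 2925 TPM in d3con. In the d2-FVFp cells, which had no feeders, the sum was 7.87 and 32.8 TPM beside 1151 and 2918 TPM of the 4 keratins. The 10 trophoblast markers summed to 60.1 and 85.5 TPM in d0con and 128 to 141 TPM in d3con, and of the 5 tested, Eomes (4.38 to 73.8 TPM on average) and Ascl2 (7.75 to 28.1 TPM) were called higher and Tfap2c lower, with Prl3d1 at 0 in both groups. Eomes is also a primitive streak gene. The 10 markers of visceral and parietal endoderm summed to 237 and 246 TPM in d0con and 295 to 601 TPM in d3con, of which Sparc, also made by fibroblasts, gave 332 TPM on average in d3con, while Afp was at 0 in both groups and Ttr at 0.127 TPM in d3con. Of 7 tested members of that list, Lamb1, a laminin chain (18.6 to 134 TPM), and Cubn (0.06 to 0.653 TPM) were called higher and Rhox5 lower. Definitive endoderm markers (Sox17, Cer1, Hhex, Dkk1, Hnf4a and Gata4) summed to 5.36 and 6.78 TPM in d0con and 760 to 1278 TPM in d3con. All 6 were called higher. Beside each of these lists, 20.6% of all genes tested were called higher and 14.6% lower in d3con against d0con. The part of these lists in the keratin levels was not tested.

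The same step was then compared in cells without Foxa2. No member was called in d3ko against d0ko (edgeR, 0 of 4). This count is near the share of all tested genes, of which 11.6% were called higher and 5.72% lower. Whether the change differed between the genotypes is tested by the interaction described below, in which no member was called. At an unadjusted p under 0.05 were 2 of the 4 members, beside 6025 of the 13899 genes tested. DESeq2 called Krt19, among 2913 genes in all. Krt8 read 83.3 and 114 TPM in d0ko and 214, 269 and 71.1 TPM in d3ko. Replicate 3 lay below both d0ko libraries and the others above them. The change was 0.73 ± 0.49 on the log2 scale (edgeR adjusted p = 0.284). Krt7 read 6.62 and 10.3 TPM in d0ko and 6.02, 3.22 and 5.5 TPM in d3ko. All 3 d3ko libraries were below both d0ko libraries, although by little for replicate 1. With a log2 fold change of -0.95 ± 0.31 it passed the p-value threshold but not the fold change limit (edgeR adjusted p = 0.0443).

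Krt18 read 62.0 and 95.5 TPM in d0ko and 180, 180 and 53.6 TPM in d3ko, which puts replicate 3 below d0ko, as for Krt8. Its log2 fold change was 0.64 ± 0.51 (edgeR adjusted p = 0.363). Krt19 read 41.7 and 52.5 TPM in d0ko and 170, 240 and 47.6 TPM in d3ko. Replicates 1 and 2 were well above d0ko and replicate 3 fell between the d0ko libraries. The log2 fold change of Krt19, 1.52 ± 0.52, just missed the threshold (edgeR adjusted p = 0.0532). With the clone as a block, as day 0 and day 3 libraries of a clone are paired, it was 1.55 and was called (edgeR adjusted p = 0.0471), and without d3ko replicate 3 it was 1.95 (edgeR adjusted p = 0.000671). Without d3ko replicate 3, Krt8 was called as well, and without d3ko replicate 1, Krt7 was called as lower, at -1.12 (edgeR adjusted p = 0.0426).

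**Figure D2:**
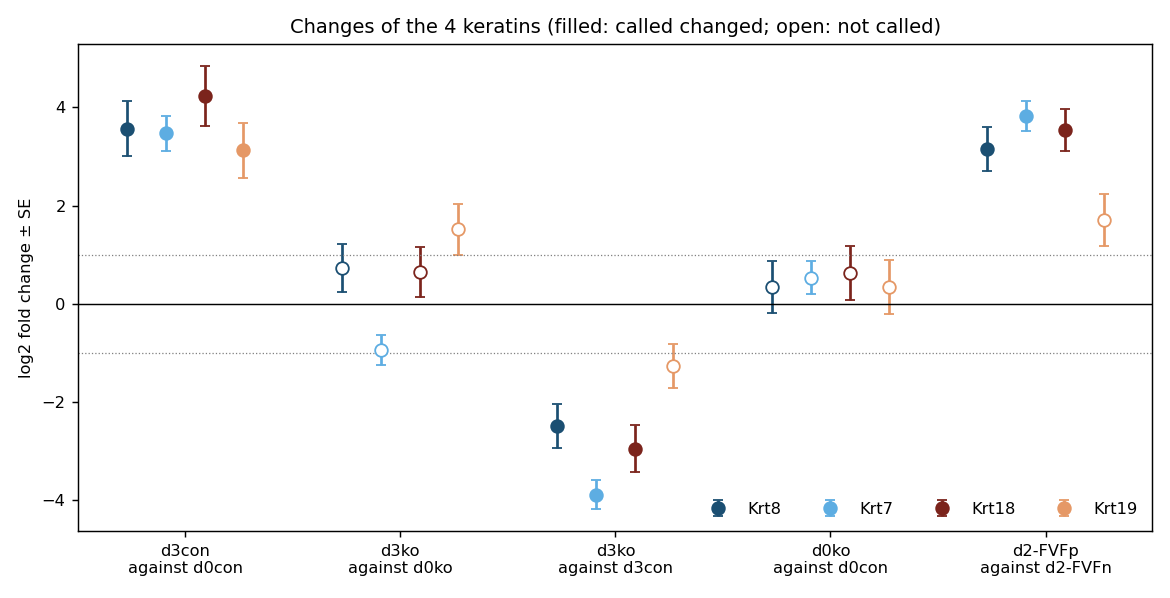
Log2 fold change (first group over second) of each keratin in 5 comparisons, with SE bars from the edgeR fit. Filled points were called changed and open points were not, and dotted lines mark a log2 fold change of 1 and -1. Krt19 had the smallest change of the 4 in d3ko against d3con (-1.27) and in d2-FVFp against d2-FVFn (1.71).

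At day 3 the direct comparison of d3ko with d3con asks which keratin RNA depends on the presence of Foxa2. Of the 4 members 3 were called lower, where 3.51% of tested genes were called lower. Krt7 had the largest difference, -3.89 ± 0.30 on the log2 scale, and its mean of 4.91 TPM in d3ko stood against 72.8 TPM in d3con (edgeR adjusted p = 0.00226). The difference was -2.96 ± 0.48 for Krt18 (edgeR adjusted p = 0.0112) and -2.50 ± 0.45 for Krt8 (edgeR adjusted p = 0.0143). Krt19 was 2.41-fold lower at -1.27 ± 0.45 and was not called (edgeR adjusted p = 0.102). DESeq2 called all 4 lower, Krt19 at -1.26 (adjusted p = 0.0295), among 1678 genes called in either direction. Every d3ko library was below every d3con library for each of the 4 genes. How many of all genes separate in this way was not counted. In relation to the d3con mean, single d3ko libraries held 0.0442 to 0.0827 of Krt7, 0.069 to 0.261 of Krt8, 0.0504 to 0.17 of Krt18 and 0.13 to 0.656 of Krt19.

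Markers of cell state differed along with the keratins. The pluripotency markers summed to 562 to 985 TPM in d3con and 2668 to 17364 TPM in d3ko. Of these 6 markers 4 were called higher in d3ko (4.75% of all genes), with a median log2 fold change of 3.85. Of 6 definitive endoderm markers 3 were called lower, where 3.51% of all genes were. From the lists of visceral and parietal endoderm and of trophoblast, Lamb1 at -1.73 and Ascl2 at -2.97 were called lower too (edgeR adjusted p of 0.0133 and 0.0109). Their part in the keratin difference was not tested.

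The calls of this comparison depended on which libraries were used. With libraries of the same clone summed, none of the 4 was called (Krt7 at -4.00, edgeR adjusted p = 0.0568), nor without replicate 1 of both groups, the libraries with other effective lengths (Krt7 at -4.03, edgeR adjusted p = 0.0556), and over all genes the calls fell from 1148 to 1 in each case. Without d3con replicate 3, Krt7 alone was called, without d3con replicate 1 Krt7 and Krt18 were called, and without d3ko replicate 2, the library low in pluripotency markers, all 4 were called, with Krt19 at -1.74 (edgeR adjusted p = 0.0218).

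Before differentiation no difference between the genotypes was detectable with 2 libraries against 2. None of the 4 keratins was called in d0ko against d0con, by edgeR or by DESeq2, with 0 of 4 at an unadjusted p under 0.05, and 0% of the genes tested were called by edgeR. The log2 fold changes were 0.33 ± 0.53 for Krt8, 0.53 ± 0.34 for Krt7, 0.63 ± 0.55 for Krt18 and 0.34 ± 0.55 for Krt19, all with an edgeR adjusted p of 1. All 4 means were thus higher in d0ko, and for Krt18 and Krt19 both d0ko libraries were above both d0con libraries. The share of all genes that separate in this way was not counted, so no weight is put on it.

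The interaction of genotype and day compares the change from day 0 to day 3 between ko and con. It was negative for all 4 keratins, none of which was called, and 0% of the 13899 genes were called in it. Krt7 came nearest, with an interaction of -4.41 ± 0.45 on the log2 scale (edgeR adjusted p = 0.0509), followed by Krt18 at -3.59 ± 0.73 (edgeR adjusted p = 0.141), Krt8 at -2.83 ± 0.70 (edgeR adjusted p = 0.164) and Krt19 at -1.61 ± 0.71 (edgeR adjusted p = 0.372). All 4 had an unadjusted p under 0.05, as had 1840 of the genes tested, and DESeq2 called 3 of the 4, among 566 genes in all. Without d3ko replicate 2, edgeR also called Krt7, Krt8 and Krt18.

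The doxycycline series asks what Foxa2 does when it is forced on stem cells kept in LIF and serum. Of the 4 keratins 3 were called higher in d2-FVFp than in d2-FVFn, where 6.96% of 12943 genes tested were called higher. Krt8 read 72.8 and 120 TPM in d2-FVFn and 487 and 1284 TPM in d2-FVFp. Replicate 2 was the higher library in both groups, and the groups did not overlap. Krt8 rose by 3.15 ± 0.45 on the log2 scale (edgeR adjusted p = 0.0062). Krt7 read 8.23 and 8.16 TPM in d2-FVFn and 84.9 and 155 TPM in d2-FVFp, the highest Krt7 level of the series. Its log2 fold change of 3.82 ± 0.31 was the largest of the 4 here (edgeR adjusted p = 0.00128).

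Krt18 read 65.0 and 94.0 TPM in d2-FVFn and 542 and 1371 TPM in d2-FVFp, a level at which it ranked 315 and 72 among all genes of those libraries. Krt18 rose by 3.54 ± 0.42 on the log2 scale (edgeR adjusted p = 0.00351). Without d2-FVFp replicate 2, the library with more of both, the rise was 2.74 for Krt18 and 2.30 for Krt8, and both were still called. Krt19 read 13.2 and 29.5 TPM in d2-FVFn and 36.8 and 108 TPM in d2-FVFp. The groups did not overlap, but the lower d2-FVFp library was only 1.72 times the d2-FVFn mean and the higher one 5.05 times. Its log2 fold change was 1.71 ± 0.53 and was not called (edgeR adjusted p = 0.0648), and without d2-FVFp replicate 1 it was 2.30 and was called (edgeR adjusted p = 0.00509). It was 0.75 without d2-FVFp replicate 2 (edgeR adjusted p = 0.192) and 2.41 without d2-FVFn replicate 2 (edgeR adjusted p = 0.0681). Among markers of cell types that use simple keratins, the trophoblast list summed to 55.9 and 36.1 TPM in d2-FVFn and 54.1 and 42.2 TPM in d2-FVFp, with Tpbpa and Prl3d1, markers of its differentiated cells, at 0 in both groups. Cdx2, which trophoblast shares with posterior endoderm, was called higher (7.37 TPM in d2-FVFp on average, 0.09 TPM in d2-FVFn), as was Eomes (3.1 and 0.975 TPM). The visceral and parietal endoderm list summed to 216 and 332 TPM in d2-FVFp and 262 and 290 TPM in d2-FVFn, and its defining serum protein genes Afp and Ttr averaged 0.575 and 0.465 TPM in d2-FVFp. Apoa1 of the same list, an apolipoprotein gene, was called higher (2.7 TPM in d2-FVFp and 0.1 TPM in d2-FVFn on average, log2 fold change 4.41, edgeR adjusted p = 0.0165). The definitive endoderm list summed to 8.18 and 6.86 TPM in d2-FVFn and 18.7 and 12.9 TPM in d2-FVFp. Of its 3 genes tested, Cer1 (4.16, edgeR adjusted p = 0.0183) and Gata4 (2.59, edgeR adjusted p = 0.00338) were called higher, beside 6.96% of all genes. Cer1 averaged only 1.81 TPM and Gata4 5.61 TPM in d2-FVFp. The part of these cell types in the keratin levels was not tested.

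The order of the groups differed between the members. For Krt8 and Krt18 it began with d3con (means of 1032 and 1064 TPM) and d2-FVFp (885 and 957 TPM), whose libraries overlapped, and the d3ko mean followed at 185 and 138 TPM, whose libraries overlapped with those of the next group in the order. For Krt7 the order began with d2-FVFp (120 TPM) and d3con (72.8 TPM), which did not overlap, while d3ko (4.91 TPM) was last and overlapped with d0con (5.71 TPM). For Krt19 the d3con mean of 366 TPM was followed by d3ko at 153 TPM and by d2-FVFp at only 72.5 TPM, and the last of these groups overlapped with both d3ko and d0ko (47.1 TPM). Levels across the differentiation and the doxycycline series come from different cell lines and cultures and were not tested against each other.

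**Figure D3:**
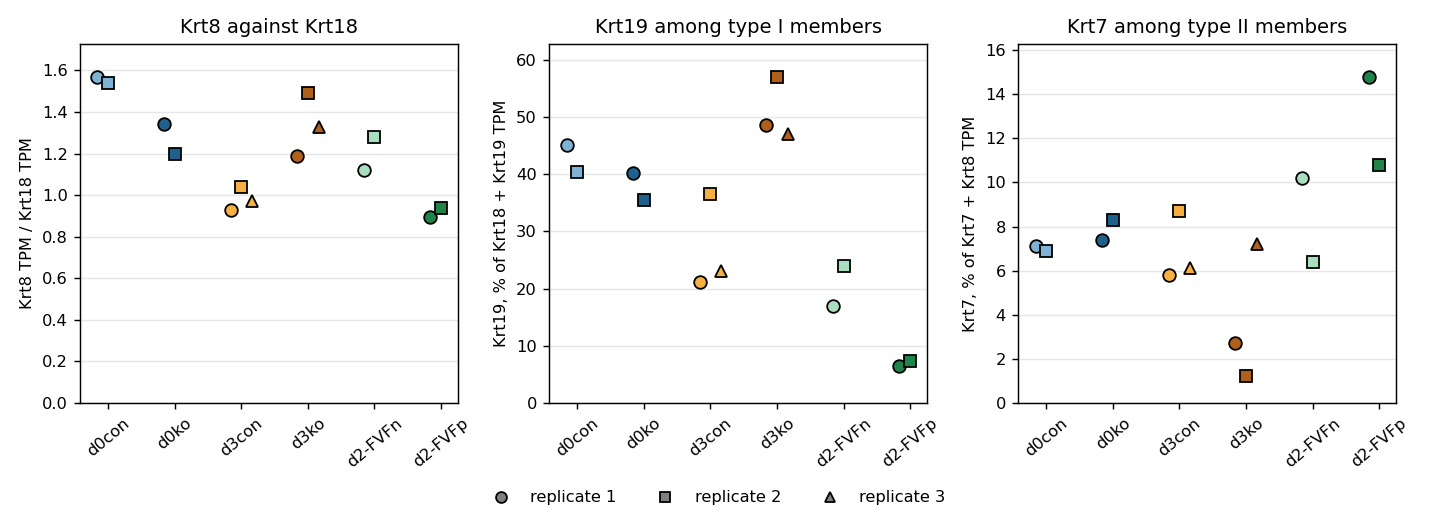
Ratio of Krt8 to Krt18 TPM, Krt19 as a percentage of the type I members and Krt7 as a percentage of the type II members, in each library by group, with axes from 0. Krt19 made up 6.4% and 7.3% of the type I members in d2-FVFp and 47.1% to 57.1% in d3ko.

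The make-up of the keratin RNA is described here without a test. Krt8 and Krt18 stayed within a narrow ratio, 0.897 to 1.57 TPM of Krt8 per TPM of Krt18 over the 14 libraries, while their levels ran from 60.7 to 1284 TPM and from 38.7 to 1371 TPM. The ratio was 0.93 to 1.04 in d3con and 0.897 and 0.937 in d2-FVFp, below the 1.12 to 1.57 of all other libraries. Krt19 took 40.4% and 45.1% of the type I members in d0con, 21.1% to 36.5% in d3con, and 47.1% to 57.1% in d3ko. In the doxycycline series it took 16.9% and 23.9% in d2-FVFn and 6.4% and 7.3% in d2-FVFp. Krt7 took 6.4% and 10.2% of the type II members in d2-FVFn, 10.8% and 14.8% in d2-FVFp, 5.8% to 8.7% in d3con and 1.2% to 7.2% in d3ko. Type II over type I, both members of each type summed, stayed between 0.627 and 1.04 in every library.

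Within the day 3 groups the keratins followed the marker lists only in part. In d3ko, replicates 2, 1 and 3 held 269, 214 and 71.1 TPM of Krt8, and the definitive endoderm markers (Sox17, Cer1, Hhex, Dkk1, Hnf4a and Gata4) summed to 141, 78.4 and 29.0 TPM in the same order. Replicates 1 and 3, at 214 and 71.1 TPM of Krt8, share the clone C9. Krt7 ran the other way, lowest in replicate 2 at 3.22 TPM. In d3con, replicate 2 had the least Krt8 and Krt18, the lowest endoderm sum (760 TPM against 1278 and 1204 TPM) and the highest mesoderm sum (169 TPM against 20.6 and 36.3 TPM for T, Mesp1, Hand1, Hand2, Tbx5 and Noto). Krt19 and Krt7 varied little there, by 5.4% and 7.5% of their means (SD, n = 3), against 27.8% for Krt8 and 32.2% for Krt18. Replicates 1 and 3 of d3con, of 1 clone and with different effective lengths, were close, as in 1207 and 1188 TPM of Krt8 and 74.4 and 77.3 TPM of Krt7. The part of these marker differences in the keratin levels was not tested.

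Likeness over the 14 libraries was measured as Pearson's r of log2(TPM + 1) among 11101 genes with a mean of at least 5 TPM in a group. The libraries fall into separate groups that share treatments, so r describes the order of groups more than any relation of single libraries. Krt8 and Krt18 were each other's nearest gene (r = 0.996, n = 14). Apart from the members, Krt8 was most like Nedd9 (0.975), Cmtm8 (0.96) and Ten1 (0.957), and Krt18 most like Nedd9 (0.968), Cmtm8 (0.958) and Batf (0.958). Krt7 was most like Foxa2 itself (0.972), followed by Eya2 (0.951) and Vill (0.949), and Krt18 came at rank 14 (0.908). Krt19 had Dsp (0.983), Mgat1 (0.967) and Fkbp2 (0.965) nearest, and an r of 0.774 to Krt8, 0.735 to Krt18 and 0.459 to Krt7. Dsp encodes desmoplakin, which ties keratin filaments to desmosomes.

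Dsp and Eya2 were picked by their r over these same libraries, so their levels describe the likeness and are no separate support for it. Dsp averaged 2.03 TPM in d0con, 19.6 TPM in d3con and 8.76 TPM in d3ko, and only 0.805 and 2.89 TPM in d2-FVFn and d2-FVFp. It was called higher in d3con against d0con (log2 fold change 3.08 ± 0.52, edgeR adjusted p = 0.00151) and was not called in d3ko against d3con (-1.18 ± 0.41, edgeR adjusted p = 0.0989). In d3ko against d0ko Dsp was called higher (1.53 ± 0.48, edgeR adjusted p = 0.0397), while Krt19 was not called (edgeR adjusted p = 0.0532). Eya2, a transcriptional cofactor, showed the pattern near Krt7, with 13.5 TPM in d3con, 0.19 TPM in d3ko and 8.03 TPM in d2-FVFp.

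**Figure D4:**
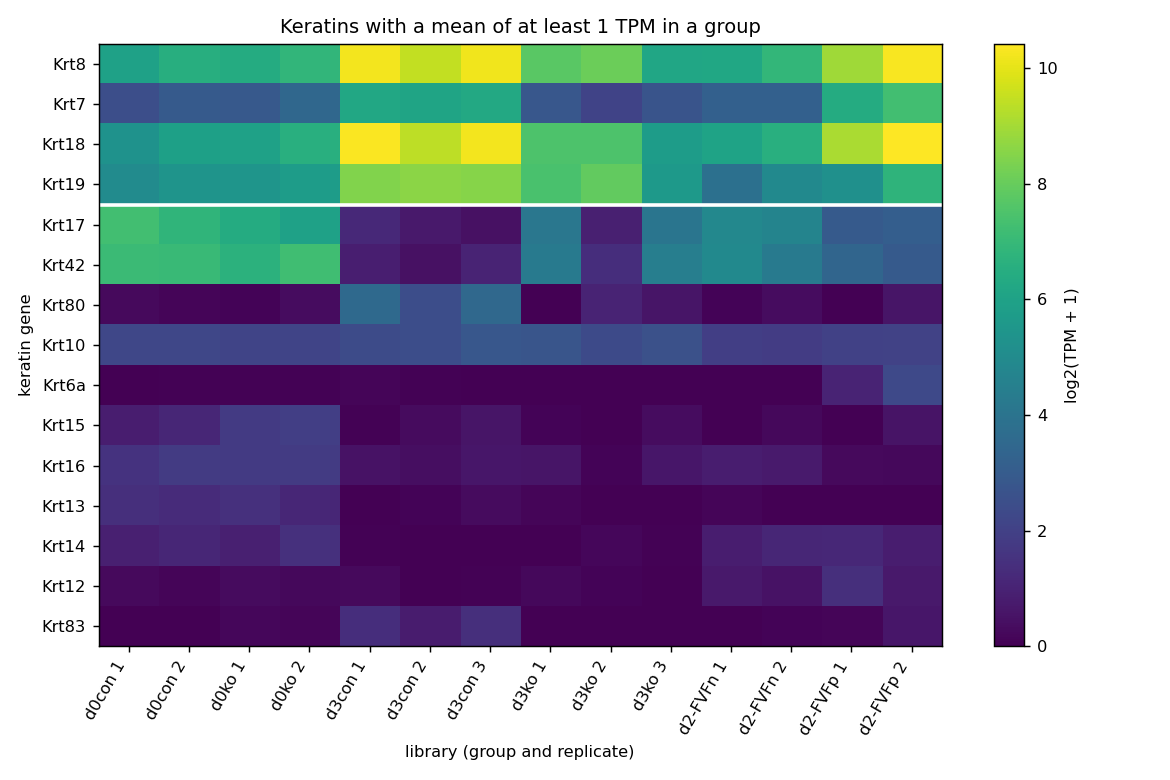
Log2(TPM + 1) of the 4 members, above the white line, and of the 11 other keratins with a mean of at least 1 TPM in a group, in each of the 14 libraries. Krt17 and Krt42 were brightest in the day 0 libraries (62.1 to 151 TPM), and dark in d3con (0.37 to 1.32 TPM), where the members were bright. Krt19 was brightest in d3con, and Krt7, Krt8 and Krt18 in d2-FVFp replicate 2.

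The other keratins included some that fell where the 4 simple keratins rose. Of 48 other keratin genes, 8 had no count in any library and 11 reached a mean of 1 TPM in a group. The members took 31.3% of the summed keratin TPM in the library where their share was lowest and 99.3% where it was highest. Krt17 and Krt42, neighbouring type I keratins of high similarity whose reads may be shared between them, read 112 to 151 TPM in d0con and 62.1 to 148 TPM in d0ko, which is above Krt18 and Krt19 in the d0con libraries. In d3con they were at 0.37 to 1.32 TPM. Among 9 other keratins tested in d3con against d0con, 5 were called lower and 2 higher, with a median log2 fold change of -2.52 against 0.07 for all genes tested (14.6% of genes were called lower). Krt42 fell by 7.64 (SE 0.94) and Krt17 fell by 7.59 (SE 1.02) on the log2 scale, with edgeR adjusted p-values of 0.00042 and 0.000582.

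Other keratins fell in the ko cells as well, where no member was called. In d3ko against d0ko, 6 of the 9 tested were called lower and none higher (5.72% and 11.6% of all genes). Their median log2 fold change was -3.32. Among them were Krt42 at -3.32 ± 0.75 and Krt17 at -2.89 ± 0.81 (edgeR adjusted p of 0.0114 and 0.0265). In d3ko Krt17 and Krt42 were intermediate and uneven. Krt42 read 18.9, 1.55 and 21.1 TPM and Krt17 16.7, 0.9 and 15.4 TPM in replicates 1, 2 and 3, so that replicate 2 was near the d3con libraries. Both were called higher in d3ko than in d3con (4.18 ± 0.84 for Krt42 and 3.81 ± 0.91 for Krt17, edgeR adjusted p of 0.0189 and 0.031), where 4.75% of genes were called higher. In the doxycycline series they were called lower in d2-FVFp, with log2 fold changes of -1.60 ± 0.31 for Krt42 and -1.92 ± 0.21 for Krt17 (edgeR adjusted p of 0.0161 and 0.0028), where 1.47% of genes were. Krt80, a type II keratin, was higher in d3con, at 10.8, 4.53 and 10.6 TPM in d3con against 0.2 and 0.11 TPM in d0con and 0 to 1.05 TPM in d3ko, and it was called in both comparisons (edgeR adjusted p of 0.0052 and 0.0252). It stayed at 0 to 0.52 TPM in the doxycycline libraries, too low to be tested there. Krt83, at 0 in both d0con libraries, read 0.71 to 1.66 TPM in d3con, and Krt6a, at 0 in both d2-FVFn libraries, read 1.07 and 3.91 TPM in d2-FVFp. Krt10, a keratin of stratified epidermis, held 2.63 to 6.12 TPM in every library and was not called in any comparison.

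Other intermediate filaments went separate ways. Of 16 such genes 13 were tested, and in d3con against d0con 1 was called higher and 6 lower, against 20.6% and 14.6% of all genes tested. The one that rose was Vim, encoding the mesenchymal filament vimentin, from 28.0 to 203 TPM (log2 fold change 2.67, edgeR adjusted p = 0.000665). It rose in the knockout cells too, from 42.3 to 262 TPM (2.47, edgeR adjusted p = 0.00242), and fibroblasts also express it. The neurofilament genes Nefh and Nefl and the internexin gene Ina had log2 fold changes of -4.58, -3.48 and -3.82 in d3con against d0con (edgeR adjusted p of 0.000275, 0.006 and 0.00157). In d3ko against d3con only Des, the muscle filament desmin, was called (1.30, edgeR adjusted p = 0.0285), beside 4.75% of all genes higher and 3.51% lower. In d2-FVFp against d2-FVFn Prph, the peripherin of peripheral neurons, rose by 1.18 and Nefl fell by 1.31 (edgeR adjusted p of 0.00759 and 0.0124). There 6.96% of all genes were called higher and 1.47% lower.

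The desmosomes, hemidesmosomes and linkers that anchor keratin were mixed. Of 22 genes 18 were tested, and 3 were called higher and 3 lower in d3con against d0con, with a median log2 fold change of -0.31 against 0.07 for all genes. These counts are near the 20.6% and 14.6% of all genes called. Besides Dsp, Dsc2, a desmosomal cadherin, rose from 0.575 to 22.9 TPM (5.12, edgeR adjusted p = 0.000888), while Itgb4, a hemidesmosomal integrin chain, fell by 2.25 (edgeR adjusted p = 0.00484). In d3ko against d3con 1 was called higher and 3 lower (4.75% and 3.51% of all genes), among them Dsc2 at -2.80 (edgeR adjusted p = 0.0181) and Perp, a desmosomal membrane protein, at -1.14 (edgeR adjusted p = 0.0376). In d2-FVFp 4 were called higher and none lower (6.96% and 1.47% of all genes), with Dsc2 at 2.42, Itgb4 at 2.38, Perp at 1.29 and Dst at 1.03 (edgeR adjusted p of 0.018, 0.00196, 0.0114 and 0.0044). In d3ko against d0ko 2 were called higher and 4 lower (11.6% and 5.72% of all genes).

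Regulators of epithelial genes moved in both directions. Of 17 listed, 14 were tested in the day 0 and day 3 libraries, and 4 were called higher and 7 lower in d3con against d0con (20.6% and 14.6% of all genes). Hnf4a, a liver and gut transcription factor, and the Ets-family factor Ehf rose, to 6.85 and 4.4 TPM in d3con, and the grainyhead factor Grhl1 fell from 6.46 to 0.46 TPM. In d3ko against d3con 4 were called lower and 1 higher (3.51% and 4.75% of all genes), among them Ehf at -3.81, Ovol2 at -2.93 and Grhl1 at 3.14 (edgeR adjusted p of 0.0165, 0.0126 and 0.0165). In the doxycycline series 2 of 12 were higher and 2 lower (6.96% and 1.47% of all genes), and Ehf (1.11 TPM), Ets2 (1.37 on the log2 scale), Grhl2 (-2.07) and Ovol1 (-2.48) were those called.

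The AP-1 subunits form dimers that act on many promoters. Of 7 subunits 3 were called higher in d2-FVFp and none lower (6.96% and 1.47% of all genes), with a median of 1.52 against 0.01 for all genes. Fos rose by 2.19, Jun by 2.18 and Junb by 1.52 (edgeR adjusted p of 0.00595, 0.00128 and 0.00316). None was called in d3ko against d3con (4.75% of all genes were called higher and 3.51% lower), where the median was 0.08. In differentiation 2 of 7 were called higher and 1 lower in con cells (20.6% and 14.6% of all genes). The counts were the same in ko cells (11.6% and 5.72% of all genes). Jun rose by 2.20 in con and 1.26 in ko cells (edgeR adjusted p of 0.00112 and 0.0201), and Fosl2 by 2.67 and 2.09 (edgeR adjusted p of 0.0101 and 0.0384). Fosl1 had log2 fold changes of -2.31 in con and -2.32 in ko cells (edgeR adjusted p of 0.0342 and 0.0483).

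Proteins that bind or modify keratins were represented by 13 genes of the 14-3-3 family, chaperones and others. In d3con against d0con none was called higher and 4 lower (20.6% and 14.6% of all genes), and in d3ko against d0ko none higher and 3 lower (11.6% and 5.72%). Sfn, the epithelial 14-3-3 sigma, read 575 TPM in d0con and 42.6 TPM in d3con (-3.96, edgeR adjusted p = 0.000132), and 559 TPM in d0ko and 63.4 TPM in d3ko (-3.31, edgeR adjusted p = 0.000656). In d2-FVFp 1 of 13 was called higher, near the 6.96% of all genes, namely the transglutaminase gene Tgm2 at 2.97 (edgeR adjusted p = 0.00213). No gene of this list was called in d3ko against d3con, where 4.75% of all genes were called higher and 3.51% lower.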

How the data were processed

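RNA was amplified with a low-input kit and sequenced as single-end reads. The authors aligned reads to mm10 with STAR and quantified each library with RSEM, with versions not given in the sources used here. The deposited expected counts are RSEM estimates that are not scaled for depth, and the deposited TPM values were scaled by the authors for gene length and library total. Groups were taken from sample titles, and the con and ko clones from the names under which the libraries were deposited. All doxycycline libraries were assigned to line T119, where the study's methods name both T119 and T128 as induced lines.

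Expected counts were rounded. Genes with at least 1 CPM in at least 2 libraries then went through TMM scaling and the quasi-likelihood F test of edgeR 4.0.16 in R 4.3.3, with Benjamini-Hochberg adjustment, the 10 day 0 and day 3 libraries in 1 fit and the 4 doxycycline libraries in another. SE is the log2 fold change over the square root of F. The script was tested on simulated data. DESeq2 1.42.0 was an alternative, along with other scalings, filters, thresholds, blocks and left-out libraries. The members, gene lists and naming rules were chosen with earlier results of these data known. Named were the members, other keratins with a mean of 1 TPM in a group, up to 4 called genes per list and comparison with the largest change, and the 3 genes most like each member; 1 gene that the rule names is not reported here. Day 0 and day 3 libraries of a genotype share a clone for replicates 1 and 2, but the r of their deviations was only -0.05 to 0.06. Libraries of the same number had an r of 0.15 in d0ko against d0con and -0.01 to 0.56 in d3ko against d3con, where clones differ. In d2-FVFp against d2-FVFn, all assigned to 1 line, r was 0.29.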

Additional observations from a re-analysis of the deposited data

Results flagged for a closer look

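Krt7 rose from day 0 to day 3 in con cells. It read lower in d3ko than in d0ko, but that fall was not called. Krt7 was flagged because its libraries separated in opposite directions, so that separation is no further support. All 3 d3con libraries (66.7 to 77.3 TPM) lay above the d0con libraries, and all 3 d3ko libraries (3.22 to 6.02 TPM) lay below the d0ko libraries. The difference between the genotypes was tested as the interaction of genotype and day, which was -4.41 on the log2 scale (SE 0.45) and missed the threshold narrowly (edgeR quasi-likelihood test, adjusted p = 0.0509). Over 20 alternatives it ran from -4.72 to -4.08, with adjusted p-values from 9.25e-17 to 0.389, and it was called in 6 of them. The interaction does not test whether the directions are opposite. The fall in the ko cells alone was 1.93-fold and was called in 1 of 16 alternatives. It rests on small counts, 49 to 128 in d3ko and 147 to 205 in d0ko.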

How the results depend on the processing

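All 4 keratins were called in d3con against d0con under every alternative, and none in d0ko against d0con. In d3ko against d0ko, 1 was called (Krt19) with DESeq2, with no filter, with a mean count of at least 50, with clones summed and with the replicate block by number or by clone, and 0 to 2 with single libraries left out. In d3ko against d3con, 1 was called at an adjusted p under 0.01 and with only the 2 groups compared, 0 without replicate 1 of both day 3 groups and 0 with clones summed, 2 against a 2-fold change, 4 with DESeq2, and 1 to 4 with single libraries left out. In the interaction, DESeq2 called 3, and median-of-ratios scaling, no filter and a mean count of at least 50 called 1 each, with 0 to 3 when single libraries were left out. In the doxycycline series the count was 3 to 4 when single libraries were left out. The cause of these changes was not tested, except that dropping or summing libraries leaves fewer of them.

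The replicate number as a block gave 4 calls in the doxycycline series, where all 4 libraries were assigned to 1 line (r = 0.29 for both numbers). It gave 3 calls in d3ko against d3con. There r was 0.56 for replicate 1, the pair with other effective lengths, 0.3 for replicate 2 and -0.01 for replicate 3. The block changed no other call besides Krt19 in d3ko against d0ko. Over all genes, calls in d3ko against d3con went from 1148 to 85 at an adjusted p under 0.01, 67 with 2 groups only, 284 against a 2-fold change, and 80 to 2249 with a library left out, and in the interaction from 0 to 566 with DESeq2 16 with no filter, 128 without d3con replicate 2 and 1118 without d3ko replicate 2. In d3ko against d0ko, 2408 became 484 against a 2-fold change, 1109 at the stricter p, 1345 with 2 groups only 667 without d0ko replicate 1 and 974 without d0ko replicate 2. In d3con against d0con 4890 became 2593 and in the doxycycline series 1091 became 296 against a 2-fold change, and in the latter 452 at the stricter p and 562 and 616 without 1 or the other d2-FVFn library. Of 368 fold changes under alternatives 330 kept direction and call, 14 lost the call, 24 gained it and none reversed. Group ratios on CPM in place of TPM moved by more than 1 SD in 2 of the 16. Krt7 counts of 49 to 205 in the day 0 and ko libraries limit its precision there.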
